A study of Mus musculus with 6 samples.

Results

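The receptors described here are G protein-coupled receptors through which leukocytes sense complement fragments, formylated peptides, lipid mediators and thrombin. They are encoded by 10 genes, chosen by symbol from the 37043 gene symbols of the count table. These are C5ar1 and C3ar1, the receptors of the complement fragments C5a and C3a; Fpr1 and Fpr2, the formyl peptide receptors; Ptgdr2, Ptafr, Ltb4r1, Cysltr1 and Cysltr2, the receptors of prostaglandin D2, platelet-activating factor, leukotriene B4 and the cysteinyl leukotrienes; and F2r, a thrombin receptor known as PAR1.

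Expression was measured by bulk RNA-seq in mouse bone marrow-derived basophils (BMBAs), which are basophils grown from the bone marrow of wild-type C57BL/6J mice and enriched on beads against CD49b, as part of a study that asked whether IL-3 makes pre-basophils leave the bone marrow. The study reports that BMBAs contain both pre-basophils (FcεRIα high) and mature basophils (FcεRIα low). It also reports that the FcεRIα-high cells became less frequent as the IL-3 concentration of the culture rose. The part of these subpopulations in the receptor differences was not tested. All cultures had been kept for 7 days at 0.3 ng/mL of a growth cytokine, which the methods of the study name as IL-3. Stimulation then lasted 6 h, with PBS alone in 3 cultures and 10 ng/mL of IL-3 in the other 3, and the sources used here do not say whether IL-3 remained in the PBS medium. The labels give the libraries as separate cultures of each group; they do not say whether these came from different animals, so the p-values measure the spread between these cultures.

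Receptors of this class span the membrane 7 times and pass their signal to heterotrimeric G proteins. C5a, leukotriene B4 and formylated peptides mostly act through Gi, the cysteinyl leukotrienes, platelet-activating factor and thrombin also through Gq, and the outcome in granulocytes includes chemotaxis, calcium release and degranulation. PAR1 differs from the rest in its activation, since thrombin cuts its extracellular end and the new end serves as a tethered ligand. IL-3 primes basophils for the release of mediators, and C5a and platelet-activating factor are known triggers of that release.

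The libraries held between 10537540 and 13999287 counts. Pearson's r of log2 CPM (read counts after TMM scaling of the library sizes) over the 16675 genes tested was 0.985 to 0.988 within a group and 0.952 to 0.957 between groups. All 9 basophil markers of the list were detected and their summed level was 11543 to 12897 CPM in PBS and 18987 to 19148 CPM in IL-3. The 11 monocyte and macrophage markers were also detected, with sums of 14054 to 15223 CPM in PBS and 7296 to 8020 CPM in IL-3. Most of each sum was Lyz2, at 9962 to 10764 CPM in PBS and 5155 to 5713 CPM in IL-3. Several of the receptor genes are also used by monocytes, neutrophils and platelets, and in bulk RNA a change in the number of such cells and a change in RNA per cell cannot be told apart.

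Of the 10 receptor genes, 7 passed the filter on low counts and were tested. Among these, 4 were higher in IL-3 (F2r, Ltb4r1, C5ar1 and C3ar1), 1 was lower (Ptafr), and Cysltr1 and Cysltr2 did not pass the test. Over all genes tested, 38.2% were called at an adjusted p below 0.05 in either direction, 18.0% as higher and 20.2% as lower. The higher genes made up 47.1% of all calls, against 25.3% when libraries were scaled by their totals, which moved the median of all genes by -0.16 on the log2 scale and left the calls of the receptor genes as they were. The groups of these 5 genes did not overlap, as was so for 48.2% of all genes tested, with 23.8% wholly above PBS and 24.4% wholly below it.

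The start regions of the 5 called genes are shown, and any part of these sequences in the expression changes was not tested. Each sequence runs from 250 bases before to 50 bases after the RefSeq transcription start in GRCm38.p6, and was found for 9 of the 10 receptor genes. Capitals mark letters of 3 motifs that were chosen after the expression values were seen: TTCNNNGAA, bound by STAT factors, which act downstream of the IL-3 receptor; TGANTCA, bound by AP-1; and AGATAA or its reverse complement TTATCT, bound by GATA factors. Both strands were searched, and the motifs were present in 8.3%, 7.81% and 11.2% of 32851 promoters of this length, in that order. The F2r sequence lies at chr13:95618417-95618716 and the Ltb4r1 sequence at chr14:55765712-55766011, on the minus and the plus strand. The C5ar1 sequence lies at chr7:16259289-16259588 and the C3ar1 sequence at chr6:122856108-122856407, both on the minus strand. The Ptafr sequence lies at chr4:132563817-132564116 on the plus strand.
F2r: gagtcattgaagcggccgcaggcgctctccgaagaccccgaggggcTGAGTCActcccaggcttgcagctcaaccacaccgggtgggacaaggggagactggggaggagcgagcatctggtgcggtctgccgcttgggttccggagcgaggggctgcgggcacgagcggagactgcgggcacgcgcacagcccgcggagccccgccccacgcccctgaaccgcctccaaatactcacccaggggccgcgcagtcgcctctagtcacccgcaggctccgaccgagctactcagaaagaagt
Ltb4r1: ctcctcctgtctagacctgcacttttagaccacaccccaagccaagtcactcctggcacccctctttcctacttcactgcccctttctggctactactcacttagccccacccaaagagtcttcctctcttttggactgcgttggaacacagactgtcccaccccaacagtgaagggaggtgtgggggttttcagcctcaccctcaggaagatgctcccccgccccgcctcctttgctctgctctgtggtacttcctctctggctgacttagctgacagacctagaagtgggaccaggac
C5ar1: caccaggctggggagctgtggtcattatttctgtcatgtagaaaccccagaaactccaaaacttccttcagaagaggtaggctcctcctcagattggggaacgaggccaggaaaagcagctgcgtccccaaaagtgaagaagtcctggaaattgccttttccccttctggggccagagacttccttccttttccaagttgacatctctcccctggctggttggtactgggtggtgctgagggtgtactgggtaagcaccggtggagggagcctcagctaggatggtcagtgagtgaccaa
C3ar1: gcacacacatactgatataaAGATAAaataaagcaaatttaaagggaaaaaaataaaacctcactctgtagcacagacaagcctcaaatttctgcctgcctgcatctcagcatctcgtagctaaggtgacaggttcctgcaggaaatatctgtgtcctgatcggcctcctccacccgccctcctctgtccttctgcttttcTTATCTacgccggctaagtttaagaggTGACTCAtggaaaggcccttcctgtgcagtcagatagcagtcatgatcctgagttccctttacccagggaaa
Ptafr: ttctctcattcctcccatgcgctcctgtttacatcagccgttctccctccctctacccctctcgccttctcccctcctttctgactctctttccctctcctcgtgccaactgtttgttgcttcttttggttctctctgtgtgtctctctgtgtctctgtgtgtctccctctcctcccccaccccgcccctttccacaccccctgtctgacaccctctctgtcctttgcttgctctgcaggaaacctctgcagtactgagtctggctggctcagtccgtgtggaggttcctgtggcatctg
The F2r window held TGAGTCA starting 204 bases before the transcription start. The C3ar1 window held TGACTCA 22 bases before its start, together with AGATAA at 230 bases and TTATCT at 49 bases before it. None of the 3 motifs was found in the windows of Ltb4r1, C5ar1 and Ptafr. The F2r window had 68.7% GC and 28 CG pairs, against medians of 52.7% and 7 over all promoters. Of all promoters, 88.5% had lower GC and 85.8% had fewer CG pairs. The other windows shown held between 3 and 6 CG pairs. Of the receptor genes that were not called or not tested, Fpr2 alone held any of the motifs, with TTCTGGGAA 77 bases and TTATCT 198 bases before its start; no window for Cysltr1 was used here.

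The thrombin receptor gene F2r (ENSMUSG00000048376, chr13:95601803-95618487, GRCm38, minus strand) had the largest change of the 7. Its normalised expression was 117 CPM, 125 CPM and 131 CPM in PBS replicates 1, 2 and 3, and 1142 CPM, 1162 CPM and 1039.6 CPM in IL-3 replicates 1, 2 and 3. Every IL-3 library was far above every PBS library and the 3 values of each group lay close together. The difference was 3.16 on the log2 scale (SE 0.0612, edgeR adjusted p = 1.89e-15), an 8.94-fold higher level. This was the 55th highest log2 fold change of all 16675 genes tested, and the raw counts behind it were 1431 to 1492 per PBS library and 11567 to 13953 per IL-3 library.

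The other protease-activated receptor genes were considered with F2r, and were named after their values were seen. F2rl2, which encodes PAR3, was also higher, from 38.4 to 60.1 CPM in PBS to 89.9 to 108 CPM in IL-3 (log2 fold change 1.03, edgeR adjusted p = 3.60e-06). F2rl3, which encodes PAR4, was lower, from 9.34 to 14.2 CPM in PBS to 2.25 to 4.42 CPM in IL-3 (log2 fold change -1.75, edgeR adjusted p = 1.59e-05). F2rl1, which encodes PAR2, had under 1 CPM in every library and was not tested. F2rl1 and F2rl2 flank F2r on chromosome 13, at distances of 76575 and 78365 bases, while F2rl3 is on chromosome 8. Mouse platelets respond to thrombin through PAR3 and PAR4, and the 8 megakaryocyte and platelet markers summed to 1126 to 1820 CPM in PBS and 615 to 1167 CPM in IL-3, with PBS replicate 2 and IL-3 replicate 3 the highest of their groups. F2rl2 was highest in the same 2 libraries, F2rl3 in PBS replicate 1 and IL-3 replicate 3, and the part of platelets in the changes of these genes was not tested. The F2r difference was 3.16 with PBS replicate 2 left out and 3.21 with IL-3 replicate 3 left out.

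Among the tested lipid receptor genes of the 10, Ltb4r1 (ENSMUSG00000046908, chr14:55765962-55768494, plus strand), which encodes the high-affinity leukotriene B4 receptor BLT1, changed most. Its level was 12.8 CPM, 16.8 CPM and 13.6 CPM in PBS replicates 1, 2 and 3, and 81.8 CPM, 90.4 CPM and 87.3 CPM in IL-3 replicates 1, 2 and 3. The groups were well separated. The log2 fold change was 2.59 (SE 0.0966, edgeR adjusted p = 4.89e-12), or 6.01-fold, the 105th highest of all genes tested. Ltb4r2, the gene of the low-affinity receptor BLT2, ends 823 bases upstream of Ltb4r1 on the same strand and was higher as well, from 2.47 to 3.60 CPM in PBS to 21.5 to 27.6 CPM in IL-3 (log2 fold change 2.98, edgeR adjusted p = 7.18e-10). Scaled to exon length, Ltb4r1 was 9.95 to 14.6 times as abundant as Ltb4r2 in PBS and 8.41 to 10.1 times in IL-3, and these ranges overlapped. No 50-base stretch of Ltb4r1 was shared with another gene.

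Ptafr (ENSMUSG00000056529, chr4:132564067-132582683, plus strand), the receptor gene for platelet-activating factor, was the only called gene of the 10 that was lower in IL-3. Its level was 43.4 CPM, 48.2 CPM and 42.5 CPM in PBS replicates 1, 2 and 3, and 22.7 CPM, 19.8 CPM and 19.7 CPM in IL-3 replicates 1, 2 and 3. No IL-3 library reached the lowest PBS library. Ptafr fell by 1.11 on the log2 scale (SE 0.0945, edgeR adjusted p = 1.25e-07), which makes PBS 2.16-fold higher. The summed level of the monocyte and macrophage markers was 0.512 times as high in IL-3 as in PBS, with 8 of the 11 markers lower, 2 higher and 1 not called, and the part of these cells in the Ptafr difference was not tested. In the Ptafr transcript, 1.59% of the 50-base stretches occur in other genes.

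The cysteinyl leukotriene receptor genes were scarce. Cysltr1 (ENSMUSG00000052821, chrX:106574346-106603679, minus strand), whose product prefers leukotriene D4, was at 3.19 CPM, 2.10 CPM and 1.41 CPM in PBS replicates 1, 2 and 3, and at 1.58 CPM, 2.33 CPM and 1.09 CPM in IL-3 replicates 1, 2 and 3. The groups overlapped, and the log2 fold change of -0.43 had a 95% confidence interval from -1.19 to 0.33 (edgeR adjusted p = 0.376). It ranged from -0.77 to -0.082 when single libraries were left out, without a call. Cysltr2 (ENSMUSG00000033470, chr14:73025603-73049114, minus strand), whose product binds leukotrienes C4 and D4, was at 3.19 CPM, 2.72 CPM and 6.25 CPM in PBS replicates 1, 2 and 3, and at 0.790 CPM, 4.16 CPM and 2.17 CPM in IL-3 replicates 1, 2 and 3. These groups also overlapped, with IL-3 replicate 2 above 2 of the PBS libraries. The log2 fold change of Cysltr2 was -0.74 with an interval from -1.62 to 0.15 (edgeR adjusted p = 0.185). Its call turned on the settings, since it was called lower without the filter on low counts (-0.72, adjusted p = 0.0286) and without IL-3 replicate 2 (-1.39, adjusted p = 0.0223), while without PBS replicate 3 the difference was -0.29. With 14 to 39 counts per library for Cysltr1 and 8 to 71 for Cysltr2, both intervals leave room for a fall of more than 2-fold.

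Ptgdr2 (ENSMUSG00000034117, chr19:10937160-10942511, plus strand), the gene of the prostaglandin D2 receptor CRTH2, which marks basophils and type 2 helper cells in humans, had 0 counts in all 3 PBS libraries and 0, 0 and 3 counts in IL-3 replicates 1, 2 and 3. Both groups were at or under the limit of 3 counts that a count of 0 allows, which is 0.233 to 0.296 CPM depending on the library, so no fold is given. On the opposite strand, exons of Ccdc86 cover 39.0% of the Ptgdr2 exon bases. Ptgdr, the gene of the other prostaglandin D2 receptor, had at most 9 counts in any library and was not tested.

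The complement receptor genes rose together with the gene of a second C5a receptor. C5ar1 (ENSMUSG00000049130, chr7:16246743-16259540, minus strand) was at 24.9 CPM, 30.2 CPM and 26.4 CPM in PBS replicates 1, 2 and 3, and at 80.1 CPM, 90.1 CPM and 83.6 CPM in IL-3 replicates 1, 2 and 3. All IL-3 libraries were above all PBS libraries. Its log2 fold change was 1.64 (SE 0.0844, edgeR adjusted p = 2.70e-10), or 3.12-fold. C3ar1 (ENSMUSG00000040552, chr6:122847138-122856161, minus strand) was at 246 CPM, 250.4 CPM and 256 CPM in PBS replicates 1, 2 and 3, and at 407 CPM, 430.1 CPM and 427 CPM in IL-3 replicates 1, 2 and 3. The spread within each group was small beside the difference between them. The log2 fold change of C3ar1 was 0.75 (SE 0.0498, edgeR adjusted p = 6.23e-09), or 1.68-fold, the smallest of the 4 rises.

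C5ar2, the gene of a C5a receptor that does not couple to G proteins, lies 2588 bases from C5ar1 on chromosome 7 and the same strand. Its level was 14.3 CPM, 15.8 CPM and 13.4 CPM in PBS replicates 1, 2 and 3, and 56.4 CPM, 67.4 CPM and 68.1 CPM in IL-3 replicates 1, 2 and 3. The groups were far apart, with a log2 fold change of 2.14 (edgeR adjusted p = 9.12e-11). Its 95% confidence interval ran from 1.93 to 2.36, against 1.46 to 1.82 for C5ar1. Per kilobase of exon, C5ar1 was 2.41 to 2.73 times as abundant as C5ar2 in PBS and 1.70 to 1.97 times in IL-3. These ranges did not overlap, and the difference between the changes of both genes was not tested. Monocytes and neutrophils also carry C5ar1 and C3ar1. Of the monocyte and macrophage markers 8 of 11 were lower and 2 higher, while of the 10 neutrophil markers tested 4 were higher and 2 lower (4 lower without PBS replicate 2), and the part of these cells in the complement receptor differences was not tested.

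The formyl peptide receptor genes were at the limit of detection. Fpr1 (ENSMUSG00000045551, chr17:17876471-17883940, minus strand) had 1, 1 and 0 counts in PBS replicates 1, 2 and 3, and 3, 3 and 0 counts in IL-3 replicates 1, 2 and 3. Fpr2 (ENSMUSG00000052270, chr17:17887824-17893952, plus strand) had 3, 3 and 1 counts in PBS replicates 1, 2 and 3, and 0, 5 and 2 counts in IL-3 replicates 1, 2 and 3. No difference was detectable for either gene at this depth. Of the 50-base stretches of Fpr2, 31.5% also occur in Fpr1, Fpr3 or Gm5966, so even these few counts may be divided among the family; Fpr3 had 0 counts in every library.

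**Figure D1:**
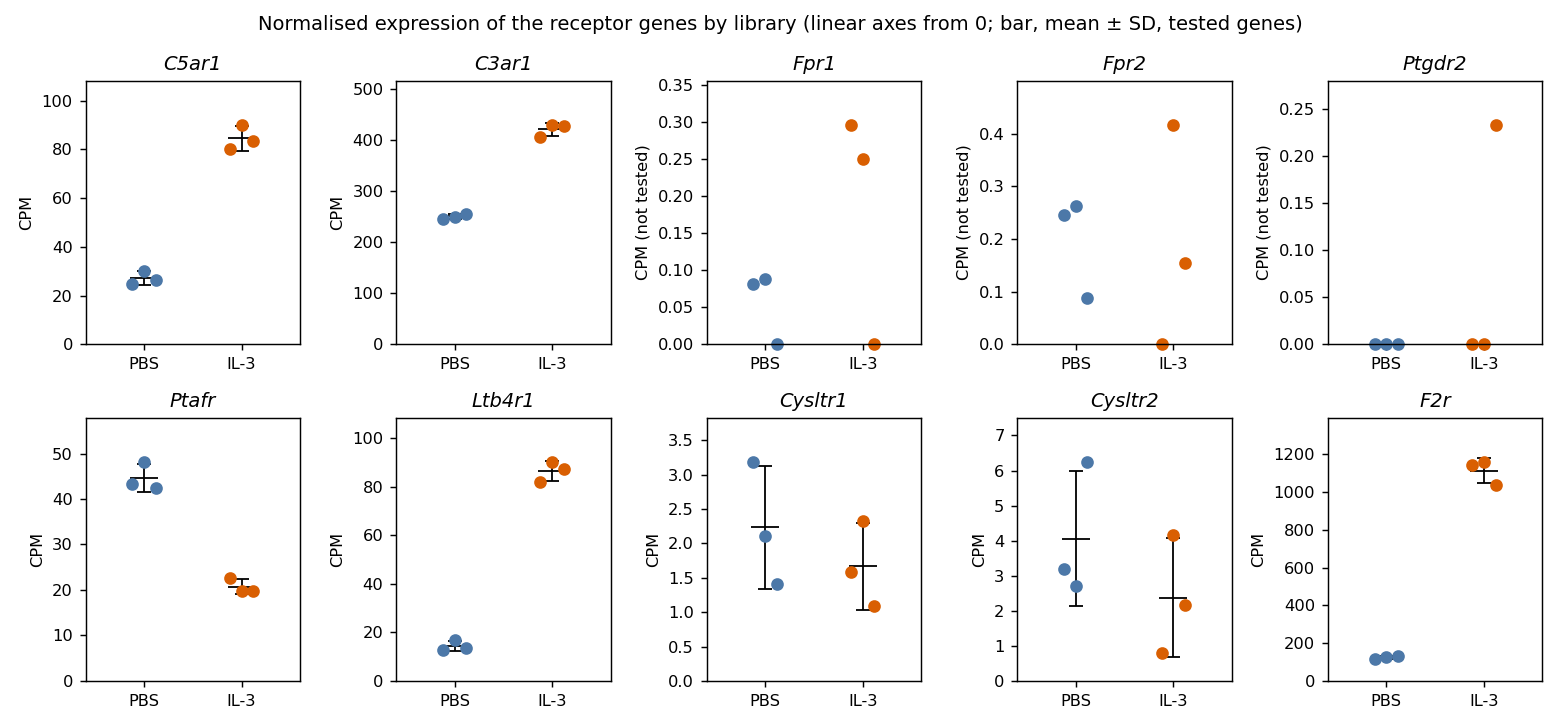
Normalised expression (CPM, linear axes from 0) of the 10 receptor genes, with 1 point per library, 3 PBS (blue) and 3 IL-3 (orange), and bars for mean ± SD of the tested genes. The IL-3 points of F2r, Ltb4r1, C5ar1 and C3ar1 lie above and those of Ptafr below all PBS points, the Cysltr1 and Cysltr2 points overlap, and Fpr1, Fpr2 and Ptgdr2 stay under 0.5 CPM.

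Levels of different genes were compared per kilobase of exon. In PBS the order was C3ar1 with 58.3 ± 1.16 CPM per kb (SD, n = 3), F2r with 37.4 ± 2.16, Ptafr with 12.3 ± 0.853, C5ar1 with 10.6 ± 1.08 and Ltb4r1 with 10.3 ± 1.53. The libraries of Ptafr and C5ar1 overlapped, as did those of C5ar1 and Ltb4r1. Cysltr2 followed with 1.41 ± 0.668 CPM per kb and Cysltr1 with 0.435 ± 0.175, without overlap between them. In IL-3 the order was F2r with 334 ± 19.7 CPM per kb, C3ar1 with 97.9 ± 2.90, Ltb4r1 with 62.0 ± 3.09, C5ar1 with 32.9 ± 1.98 and Ptafr with 5.70 ± 0.468. None of these 5 overlapped with the next in order, and the receptor genes from Cysltr2 (0.827 ± 0.591) downward all overlapped with their neighbours. F2r thus passed C3ar1, and Ptafr moved from the third to the fifth place. In IL-3, F2r stood above 99.2% of all genes tested in CPM per kb, against 91.9% in PBS, and Ptafr went from 77.6% to 60.7%.

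**Figure D2:**
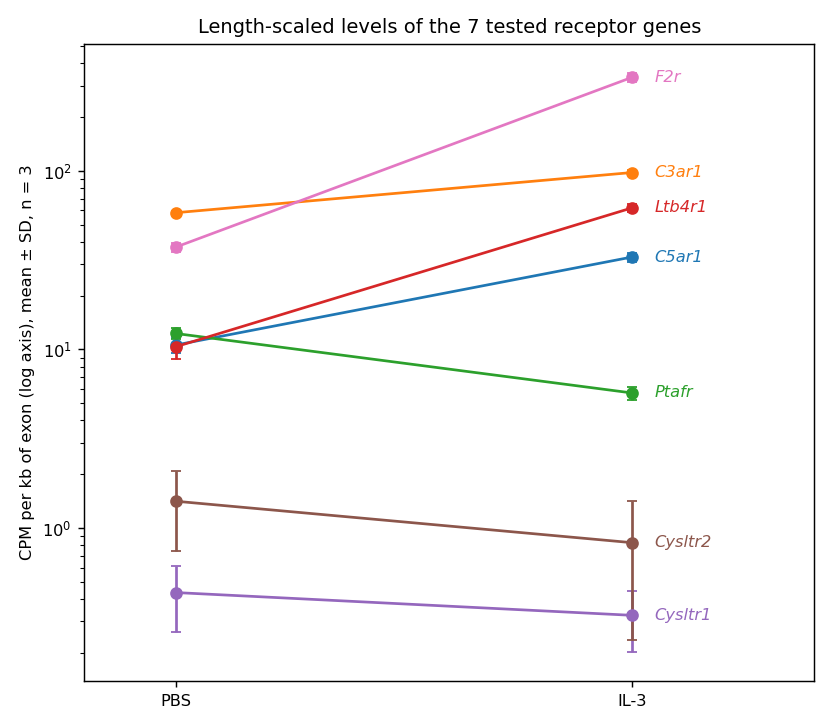
Mean level in CPM per kb of exon (log axis) of the 7 tested receptor genes in PBS and IL-3, with bars for the SD over 3 libraries. The F2r line rises from 37.4 to 334 and crosses that of C3ar1, while the Ptafr line falls from 12.3 to 5.70.

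To place the 10 genes among receptors of the same kinds, 34 other receptors for complement fragments, peptides, prostanoids, lysophosphatidic acid and nucleotides were listed, of which 29 had a row and 21 were tested. Of these, 9 were higher in IL-3 (42.9%), 8 were lower (38.1%) and 4 were not called, where 18.0% of all genes tested were higher and 20.2% lower. The median log2 fold change was 0.20, against -0.0033 over all genes tested. Besides Ltb4r2 and C5ar2, the smallest adjusted p-values belonged to P2ry14 and Ptger3. P2ry14, the receptor gene for UDP-glucose, was 66.8 CPM, 75.1 CPM and 79.2 CPM in PBS replicates 1, 2 and 3, and 249 CPM, 267 CPM and 256 CPM in IL-3 replicates 1, 2 and 3 (log2 fold change 1.81, edgeR adjusted p = 4.67e-12). Ptger3, the gene of the prostaglandin E2 receptor EP3, which couples to Gi, was 60.5 CPM, 64.7 CPM and 69.9 CPM in PBS replicates 1, 2 and 3, and 188 CPM, 186 CPM and 188 CPM in IL-3 replicates 1, 2 and 3 (log2 fold change 1.53, edgeR adjusted p = 1.85e-11). In both genes the groups were far apart. The lower genes included receptors that were scarce in both groups. Of those, named after their values were seen, the thromboxane receptor gene Tbxa2r changed by -2.19 on the log2 scale from 1.14 to 4.12 CPM in PBS, and P2ry12, an ADP receptor gene, by -1.75 from 1.84 to 2.73 CPM in PBS. The median of this list changed sign when PBS replicate 3 (-0.031), IL-3 replicate 1 (-0.0068) or IL-3 replicate 2 (-0.070) was left out.

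**Figure D3:**
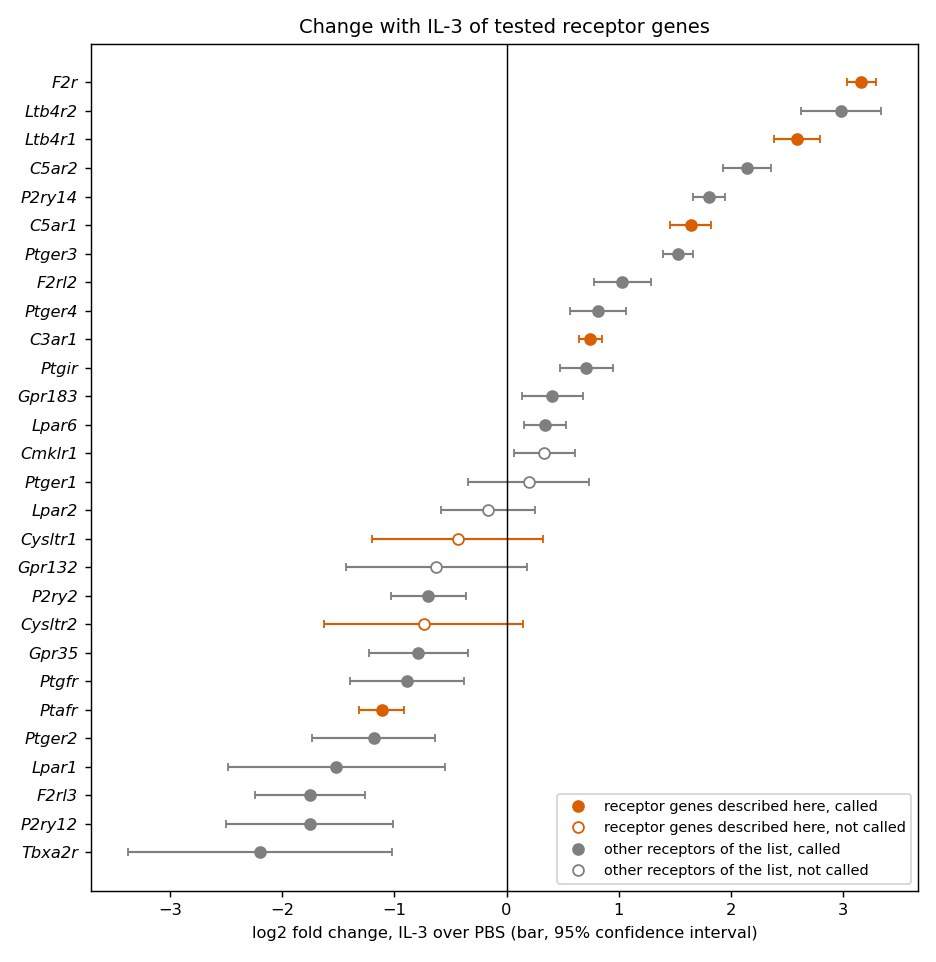
Log2 fold change (IL-3 over PBS) with its 95% confidence interval for the 7 tested receptor genes (orange) and the 21 tested receptors of the comparison list (grey), with filled points for called genes. F2r, Ltb4r2 and Ltb4r1 are at the top with 3.16, 2.98 and 2.59, and Ptafr at -1.11 lies among the lower genes.

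Downstream of the receptors, 33 of 36 genes for heterotrimeric G proteins and their direct effectors were tested, with 8 higher (24.2%), 12 lower (36.4%) and 13 not called (median log2 fold change -0.19). Of all genes tested, 18.0% were higher and 20.2% lower. The log2 fold changes of these 33 genes ranged from -1.31 to 0.61, against -2.19 to 2.98 for the other receptors. Gng2, a G protein gamma subunit, was lower, from 113 to 120.5 CPM in PBS to 63.0 to 70.6 CPM in IL-3 (log2 fold change -0.84, edgeR adjusted p = 3.87e-08). Gng12, another gamma subunit, was higher, from 124 to 136 CPM to 176 to 191 CPM (log2 fold change 0.53, edgeR adjusted p = 3.37e-06). Pik3r5, the p101 regulatory subunit of phosphoinositide 3-kinase gamma, was lower, from 28.5 to 34.0 CPM to 12.8 to 15.7 CPM (log2 fold change -1.12, edgeR adjusted p = 1.11e-06). Gna14, a Gq family alpha subunit, was lower, from 17.3 to 19.1 CPM to 5.43 to 9.15 CPM (log2 fold change -1.31, edgeR adjusted p = 8.15e-06). Named after their values were seen, the catalytic subunit gene Pik3cg was higher by 0.61 on the log2 scale, whereas Gnaq, a Gq alpha subunit, was lower, at -0.57. The higher genes of this list numbered 2 in place of 8, Gng12 among them, when libraries were scaled by their totals.

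Of 23 genes for GRKs, arrestins and RGS proteins, which end receptor signalling, 16 were tested, with 4 higher, 6 lower and 6 not called (median log2 fold change -0.17). Rgs1 was lower, from 128 to 149 CPM in PBS to 78.6 to 90.5 CPM in IL-3 (log2 fold change -0.74, edgeR adjusted p = 6.07e-07). Rgs12 was lower, from 37.7 to 40.3 CPM to 17.5 to 21.9 CPM (log2 fold change -0.95, edgeR adjusted p = 1.36e-06). Rgs10 was lower, from 92.3 to 121 CPM to 54.3 to 78.9 CPM (log2 fold change -0.74, edgeR adjusted p = 0.000128), and Rgs19 was higher, from 103 to 111 CPM to 136 to 142 CPM (log2 fold change 0.38, edgeR adjusted p = 7.14e-05). RGS proteins speed up the hydrolysis of GTP by G protein alpha subunits. The higher genes of this list numbered 1, Rgs19, when libraries were scaled by their totals, and 2 to 3 when single libraries were left out, and the median was between -0.18 and -0.019; the value nearest 0 was without IL-3 replicate 1.

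Of 30 genes for ligand precursors and for enzymes that make or degrade the ligands, 28 had a row and 21 were tested, with 7 higher, 9 lower and 5 not called (median log2 fold change -0.20). The shares were 33.3% higher and 42.9% lower, against 18.0% and 20.2% of all genes tested. With libraries scaled by their totals, 4 genes of this list were higher and its median was -0.36. Alox5, the 5-lipoxygenase that starts the synthesis of all leukotrienes, was 227 CPM, 223 CPM and 240.4 CPM in PBS replicates 1, 2 and 3, and 809 CPM, 859 CPM and 771 CPM in IL-3 replicates 1, 2 and 3. It was higher by 1.82 on the log2 scale (edgeR adjusted p = 3.42e-13). Ptgs2, the inducible cyclooxygenase COX-2, was higher by 2.71 (edgeR adjusted p = 3.86e-09), from 5.55 to 11.0 CPM in PBS to 48.2 to 66.5 CPM in IL-3. Pla2g7, which inactivates platelet-activating factor, was lower, with a log2 fold change of -1.41 (edgeR adjusted p = 5.26e-11), from 305 to 357 CPM in PBS to 121 to 130.1 CPM in IL-3. Cfp, the complement factor properdin, was higher by 0.83 (edgeR adjusted p = 8.21e-09), from 123 to 135 CPM to 224 to 233 CPM.

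Other genes of this list are named after their values were seen. The leukotriene A4 hydrolase gene Lta4h, which makes the ligand of the Ltb4r1 product, had a log2 fold change of -0.13 (edgeR adjusted p = 0.154). Ltc4s, the leukotriene C4 synthase, was lower, at -1.04 (edgeR adjusted p = 0.000897), and Hpgds, a prostaglandin D2 synthase, was lower, at -1.11 (edgeR adjusted p = 2.89e-07). The monocyte and macrophage marker sum was 0.512 times as high in IL-3, and its part in the falls of Pla2g7, Ltc4s and Hpgds was not tested. The genes of the ligand precursors C5 (Hc) and prothrombin (F2) were under 1 CPM in every library, and C3 had a log2 fold change of -0.20 (edgeR adjusted p = 0.494).

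**Figure D4:**
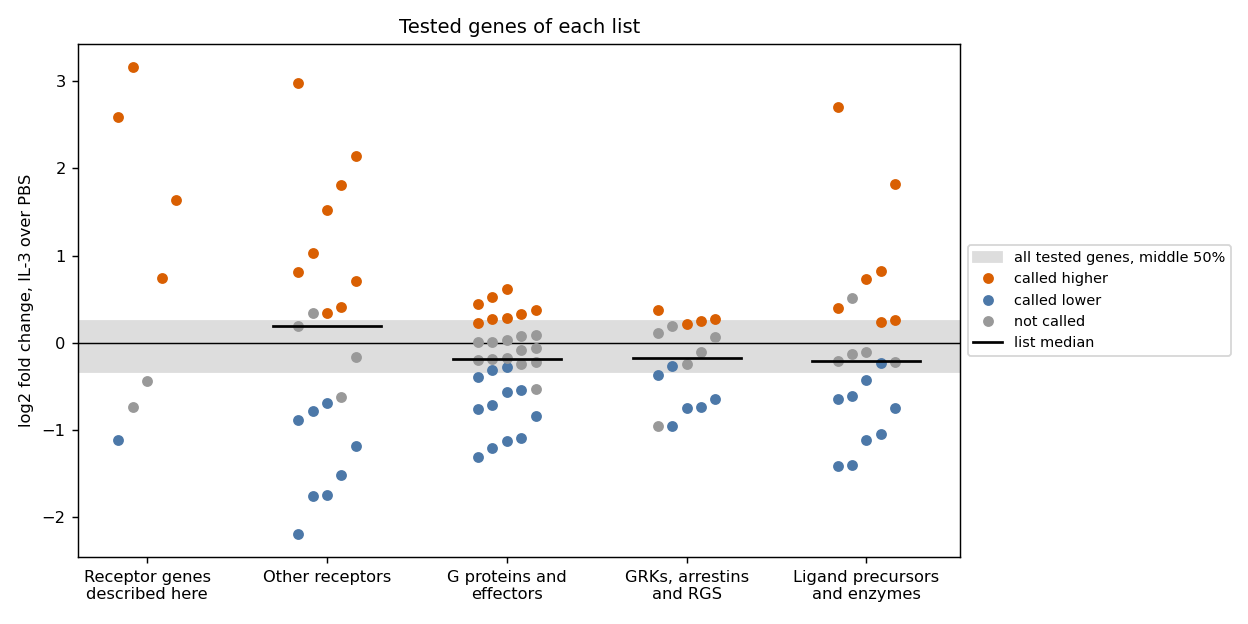
Log2 fold change (IL-3 over PBS) of each tested gene in the receptor genes described here and in 4 lists of related genes, coloured by call, with the list median as a black bar and the middle 50% of all tested genes in grey (-0.34 to 0.25). The receptors spread from -2.19 to 3.16, while the G protein and effector genes stay between -1.31 and 0.61.

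The genes whose pattern was most like that of F2r, by Pearson's r of log2 CPM over the 6 libraries, were Rasgrp4, Cish and Pim2, each with r above 0.999. Rasgrp4, a Ras activator of mast cells and granulocytes, was higher by 2.55 on the log2 scale, Cish, an inhibitor of cytokine signalling that STAT5 induces, by 4.01, and Pim2, a kinase gene, by 3.46. For Ltb4r1 they were M6pr, Tnfsf14 and C5ar1, with log2 fold changes of 0.28, 2.32 and 1.64; M6pr was not called with libraries scaled by their totals (0.12). These correlations describe 2 groups of 3 libraries, so any gene whose groups are tight beside their distance scores high.

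Markers of other cell types also moved between the groups. The most abundant monocyte and macrophage markers, the lysozyme gene Lyz2 and the cathepsin gene Ctss, were lower, with log2 fold changes of -0.97 and -1.02. Adgre1 and Ly6c2, of the same list, were higher, at 0.53 and 1.29. Of the 8 megakaryocyte and platelet markers, 4 were lower and 4 were not called. The chemokine gene Pf4 was lower, at -0.97, and the integrin gene Itga2b was not called, at -0.15. The mast cell markers Cpa3 and Tpsb2, both protease genes, were higher by 0.53 and 1.04, whereas Mcpt1 and Mcpt2 were lower, at -1.55 and -1.08. Besides the monocyte and macrophage list, the summed level was 1.59 times as high in IL-3 for the 9 mast cell markers (907 to 1041 CPM in PBS, 1461 to 1595 CPM in IL-3), with 4 markers higher, 2 lower, 2 not called and Mrgprb2 at most at 3 counts in every library. The 12 neutrophil markers summed to 282 to 319 CPM in PBS and 432 to 508 CPM in IL-3. That rise was mainly that of Cxcr2, from 58.0 to 63.2 CPM in PBS to 184 to 198 CPM in IL-3, and of Retnlg, from 9.38 to 13.4 CPM to 64.3 to 75.2 CPM. The 8 eosinophil markers summed to 157 to 175 CPM in PBS and 99.0 to 139 CPM in IL-3. The 6 NK cell markers summed to 6.46 to 8.24 CPM and 28.8 to 33.1 CPM, with Gzma and Prf1 at most at 3 counts. Nearly all of that sum was Nkg7, the only 1 of the 6 that was tested, and the other markers were under 1 CPM in every library. Among basophil markers, 7 of 9 were higher, 1 was lower and 1 was not called, and the summed level was 1.57 times as high in IL-3. The protease gene Prss34 was not called (log2 fold change 0.012, edgeR adjusted p = 0.860) but was called lower with libraries scaled by their totals (-0.15, adjusted p = 0.0264), while Mcpt8, another basophil protease gene, was higher by 0.94 (edgeR adjusted p = 6.98e-11). The part of these cell types in the receptor differences was not tested.

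**Figure D5:**
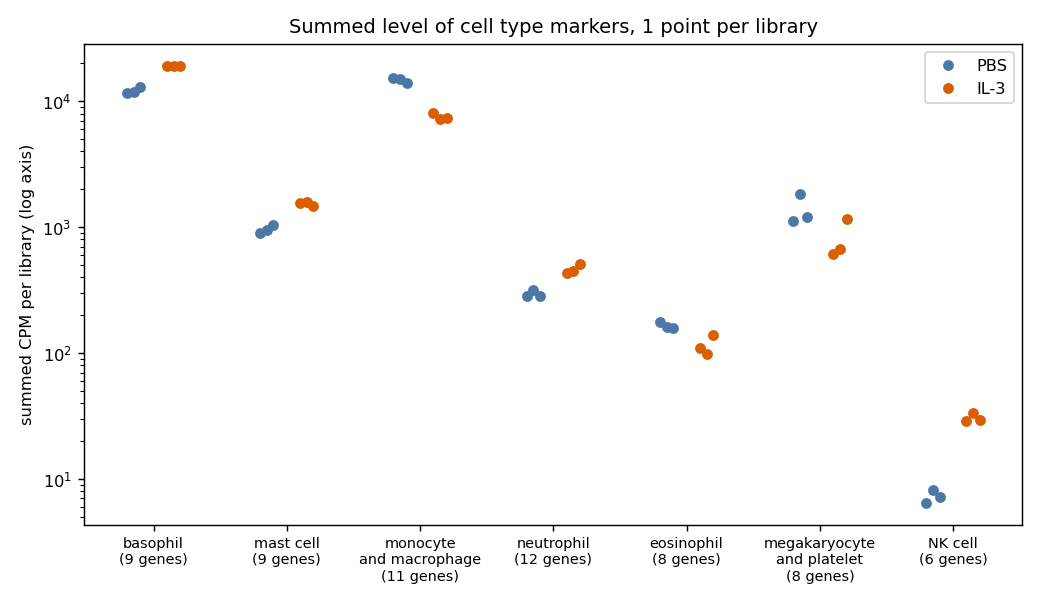
Summed CPM (log axis) of the markers of 7 cell types, with 1 point per library for PBS (blue) and IL-3 (orange). The basophil sums are higher in IL-3 (18987 to 19148 against 11543 to 12897) and the monocyte and macrophage sums lower (7296 to 8020 against 14054 to 15223).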

How the data were processed

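Poly(A) RNA of BMBAs was captured on oligo-dT beads and amplified as whole-transcriptome cDNA (TAS-Seq workflow), with no molecular identifiers described. The authors trimmed reads with Cutadapt 3.4, mapped them with Bowtie2 to reference RNA and deposited raw counts per gene symbol in a single table. The methods of the study give the build as GRCm38, while the submitters' processing notes list GRCm39; the table holds no coordinates. PCR copies were counted as reads, and the sources used here do not say how reads shared by related genes were handled. The labels name a column-based RNA kit and the methods direct lysis. TCC was used for differential expression in the study.

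The analysis used edgeR 4.0.16 (R 4.3.3) with filterByExpr, TMM scaling and a two-sided quasi-likelihood test on a group-only design. P-values were adjusted over the 16675 genes tested by the Benjamini-Hochberg method and genes were called below 0.05. CPM are after TMM scaling, and exon lengths and gene positions are from GENCODE M21 (GRCm38), which held 96.22% of the symbols. Fold changes are fitted values, with the SE taken from the F value. Totals ranged from 10537540 to 13999287 counts, and a count of 0 allows up to 3 counts; intervals and limits cover counting error or the spread of these cultures only. The fit was tested on simulated data.

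The receptor genes and all lists were chosen with earlier results of these data known. Named were all 10 receptor genes, the 4 genes with the smallest adjusted p of each related list (with 1 CPM or more on average where higher), the 2 most abundant markers of each cell type, and the 3 genes most like each of the 2 receptor genes with the smallest adjusted p. Alternatives were DESeq2 1.42.0 size factors and its Wald test, library totals, iterated TMM, no filter, 1 CPM in 3 libraries, limma-voom (limma 3.58.1), a replicate block and leaving out each library.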

Additional observations from a re-analysis of the deposited data

How the results depend on the processing

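F2r, Ltb4r1, C5ar1, C3ar1 and Ptafr kept their direction and their call under all 14 alternatives, with log2 fold changes of 2.9998 to 3.21, 2.43 to 2.71, 1.48 to 1.72, 0.59 to 0.77 and -1.27 to -1.05. The receptor genes called lower numbered 2 in place of 1 without the filter, and 1 to 2 when single libraries were left out, since Cysltr2 was then called. Over all 14 alternatives the Cysltr2 difference ranged from -1.39 to -0.29 (adjusted p = 0.0223 to 0.670).

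Scaling by library totals moved the median of all genes by -0.16, with 1699 genes higher and 5017 lower in place of 3003 and 3372, so 25.3% of calls were higher in place of 47.1%. Under it, the genes called higher were 2 for the G proteins and effectors, 1 for the desensitization genes and 4 for the ligand genes, and the medians were -0.35, -0.33 and -0.36, with 0.037 for the other receptors. Without the filter the median of the other receptors was 0.028. When single libraries were left out, that median ranged from -0.070 to 0.29, with -0.031 without PBS replicate 3, -0.0068 without IL-3 replicate 1 and -0.070 without IL-3 replicate 2. The desensitization genes then had 2 to 3 higher and medians of -0.18 to -0.019. The cause was not tested.

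Among other named genes, Prss34, at 0.012 in the reported fit, was -0.15 with library totals, where it was called lower, -0.012 with iterated TMM and -0.027 to 0.056 with single libraries left out, including -0.018 when that was IL-3 replicate 1. The mast cell median was -0.0068 without the filter. The megakaryocyte and platelet markers called lower, 4 in the reported fit, numbered 7 without the filter and 2 with the DESeq2 Wald test. With single libraries left out they numbered 2 to 8. M6pr lost its call with library totals (0.12), and Itga2b gained one there (-0.32) and without IL-3 replicate 3 (-0.26).

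The labels share replicate numbers between the groups, but libraries of the same number did not deviate together (correlations of -0.0087, -0.016 and -0.022). With a replicate block, 2842 genes were called higher and 3247 lower, and the receptor genes stayed at 4 higher and 1 lower.

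Low counts limit Cysltr1 and Cysltr2. Fpr1, Fpr2 and Ptgdr2 entered a test only without the filter, where none was called (adjusted p = 0.582, 0.99995 and 0.373).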

Other observations

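Genes listed as eosinophil and neutrophil markers were called in both directions, and 1 NK cell marker was called higher. Prg2, the eosinophil major basic protein, was 5.07 CPM, 5.26 CPM and 2.47 CPM in PBS replicates 1, 2 and 3, and 46.7 CPM, 39.6 CPM and 63.0 CPM in IL-3 replicates 1, 2 and 3 (log2 fold change 3.54, edgeR adjusted p = 1.69e-09). Ear2, an eosinophil-associated ribonuclease, was lower, at -1.39 (edgeR adjusted p = 4.89e-09). Cxcr2, the chemokine receptor of neutrophils, was 58.0 to 63.2 CPM in PBS and 184 to 198 CPM in IL-3 (log2 fold change 1.68, edgeR adjusted p = 4.37e-12), whereas Mmp8, a neutrophil collagenase, was lower, at -0.86 (edgeR adjusted p = 4.73e-08). Nkg7, a cytotoxic granule protein, was 5.15 to 7.36 CPM in PBS and 28.1 to 31.3 CPM in IL-3 (log2 fold change 2.22, edgeR adjusted p = 2.33e-09), while Eomes, a factor of NK cells, was under 1 CPM in every library.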
